A study of Canis lupus familiaris with 6 samples.

Results

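The NRF2 pathway genes described here were 10 genes chosen by name: the transcription factor NFE2L2 (NRF2), its inhibitor KEAP1, the autophagy receptor SQSTM1, and the antioxidant enzyme genes HMOX1, NQO1, GCLC, GCLM, GSR, TXNRD1 and SRXN1. A probe was a member when the gene name in the array file was one of these symbols. By this rule 8 of the 10 genes were measured, with 15 probes, among 12327 gene symbols on the array. NQO1 and SRXN1 matched no probe by gene name and were not analysed here under the rule. All 15 probes were well above background on all 6 arrays and were tested. The choice was by name, with earlier results of these data known.

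All samples were β-cat ΔN/RasV12 cells, made from MDCK, a dog kidney epithelial cell line. In their MDCK-pTR GFP-RasV12 background tetracycline induces GFP-tagged RasV12, an active Ras oncoprotein. The same cells carry mCherry-β-catenin Δ131, which is driven by a constitutive EF1 promoter, lacks its N-terminus and so escapes degradation. They were grown alone (single culture, 3 arrays) or with 10 MDCK mCherry-β-catenin Δ131 cells (β-cat ΔN cells) for each β-cat ΔN/RasV12 cell (mix culture, 3 arrays). Both groups received tetracycline for 24 h, and GFP-positive cells were then sorted, so the RNA of both groups came from the RasV12 side of the culture. The comparison asks what the neighbouring cells change in the β-cat ΔN/RasV12 cells. Cells without RasV12 and cultures without tetracycline were not analysed here. Nothing in the labels says whether the 3 samples of a group came from separate cultures, so the p-values measure only the spread between these samples.

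NRF2 is a transcription factor that is made continuously and, in unstressed cells, is bound by KEAP1 and handed to a ubiquitin ligase for degradation. Oxidants and electrophiles modify KEAP1, after which NRF2 accumulates, pairs with small MAF proteins and switches on genes whose products make glutathione, reduce thioredoxin, supply NADPH and break down haem. SQSTM1 (p62) can bind KEAP1 and divert it to autophagy, and it is itself an NRF2 target. Because NRF2 is controlled chiefly as a protein, its mRNA does not measure its activity, and the mRNA levels of its target genes are the usual readout.

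The levels below are what 60-base probes captured, and some of the probe sequences are shown because they place each measurement within the message of its gene. The number in brackets is the first base of the probe in the transcript that the array file names for it. The capitals in SQSTM1 mark the codons that open the short motif by which p62 holds KEAP1, and those in GCLM mark its stop codon.
NFE2L2 (387): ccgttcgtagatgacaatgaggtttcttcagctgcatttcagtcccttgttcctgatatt
NFE2L2 (2061): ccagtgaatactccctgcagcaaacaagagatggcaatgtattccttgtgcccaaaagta
KEAP1 (1647): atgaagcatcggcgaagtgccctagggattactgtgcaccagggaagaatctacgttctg
SQSTM1 (1547): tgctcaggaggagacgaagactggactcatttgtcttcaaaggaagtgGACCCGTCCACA
HMOX1 (627): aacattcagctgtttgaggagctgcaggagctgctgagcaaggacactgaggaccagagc
GCLC (2801): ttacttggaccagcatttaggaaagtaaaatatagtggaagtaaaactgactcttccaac
GCLM (642): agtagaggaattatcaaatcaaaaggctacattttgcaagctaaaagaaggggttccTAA
GSR (2165): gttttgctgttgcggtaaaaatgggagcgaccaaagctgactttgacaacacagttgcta
TXNRD1 (751): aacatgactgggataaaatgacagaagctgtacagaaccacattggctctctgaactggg
TXNRD1 (1743): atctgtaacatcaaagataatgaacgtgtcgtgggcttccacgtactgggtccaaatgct

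On the dog build CanFam3.1, which the files use, the NFE2L2 probes lie on the minus strand of chromosome 36, at chr36:20992299-20992994 (387), chr36:20989732-20989791 (2061) and chr36:20989212-20989271 (2581). The first covers 696 bases of the genome with 60 bases of probe, so it reads across a splice junction. The KEAP1 probe lies at chr20:50657994-50658053 on the plus strand, and the SQSTM1 probe at chr11:1861000-1861059 on the minus strand. The HMOX1 probe, at chr10:28745744-28747338 on the minus strand, also spans a junction, as do TXNRD1 (1743) and GSR (2057), which makes 4 of the 15. The GCLM probe lies at chr6:55240175-55240234, and the GCLC probes at chr12:21001144-21001203 (2801) and chr12:21000809-21000868 (2186). The GSR probes lie on the plus strand of chromosome 16 and the TXNRD1 probes on the minus strand of chromosome 10. Beyond these spans, no annotation of exons or UTRs was used.

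Arrays were scaled by subtracting each array's 75th percentile of log2 signal, so a normalised log2 signal of 0 is the level of that percentile, and levels are compared only within a probe. The 6 arrays each held 43803 non-control spots, of which 61.1% to 65.7% were well above background, and none was saturated. Slide 1 carried the arrays numbered 1 of both groups, and slide 2, scanned at another resolution, carried the other 4, so differences are also given with slide as a block and within each slide. Of 10 epithelial marker genes tested, all well above background on all 6 arrays, none passed the test without a block. By log2 difference 9 of them were lower in mix culture and 1 higher, with a median of -0.30. CDH1 (log2 difference -0.47, limma adjusted p = 0.0444) and CLDN4 (-0.87, 0.0136) were called lower with slide as a block, where 7.57% of all symbols were called. GRHL2, also on the epithelial list, did not pass the background filter. PTPRC and LYZ (leukocytes), CDH5 (endothelium), and COL3A1, DCN and LUM (fibroblasts) did not pass the background filter. The other genes of these lists did: 4 of 6 for leukocytes, 3 of 4 for endothelium and 3 of 6 for fibroblasts. Of these, 3, 3 and 2 were well above background on all 6 arrays. All had negative differences and none was called, with or without slide as a block. The probe for HRAS, a Ras gene, read 5.97, 6.82 and 6.45 in single culture and 5.50, 5.68 and 6.20 in mix culture, a difference of -0.62 (limma adjusted p = 0.608). Whether it captures the introduced RasV12 message is not known.

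No NRF2 pathway gene passed the test between mix and single culture. Of the 15 probes 0 were called at a limma adjusted p under 0.05, against 0.883% of all 26621 probes tested, and the smallest adjusted p was 0.548. The unadjusted p was under 0.05 for 1 probe, and the methods' test, an unpaired two-sided test per probe, also called 0 probes, with 1 at an unadjusted p under 0.05. With slide as a block, which called 7.2% of all probes, 0 of 15 members were called, 2 had an unadjusted p under 0.05 and the smallest adjusted p was 0.0888. The differences were small: the median absolute log2 difference was 0.15 over the member probes and 0.17 over all probes tested. Of the 15 probes 8 were higher and 7 lower in mix culture, and by the brightest probe of each gene 5 genes were higher and 3 lower. The member probes had a median log2 difference of 0.09, and all probes tested had one of -0.05.

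How large a change could have gone unseen is given by the intervals. Without a block the 95% intervals ran from -0.91 to 1.04 on the log2 scale over all 15 probes, and 14 of them excluded a 2-fold change in either direction. The exception was HMOX1, whose interval ran from -0.21 to 1.04. With slide as a block all 15 excluded a 2-fold change, with bounds from -0.70 to 0.87. That fit takes the difference to be equal on both slides, whereas SQSTM1 differed by -0.95 on slide 1 and 0.25 on slide 2.

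**Figure D1:**
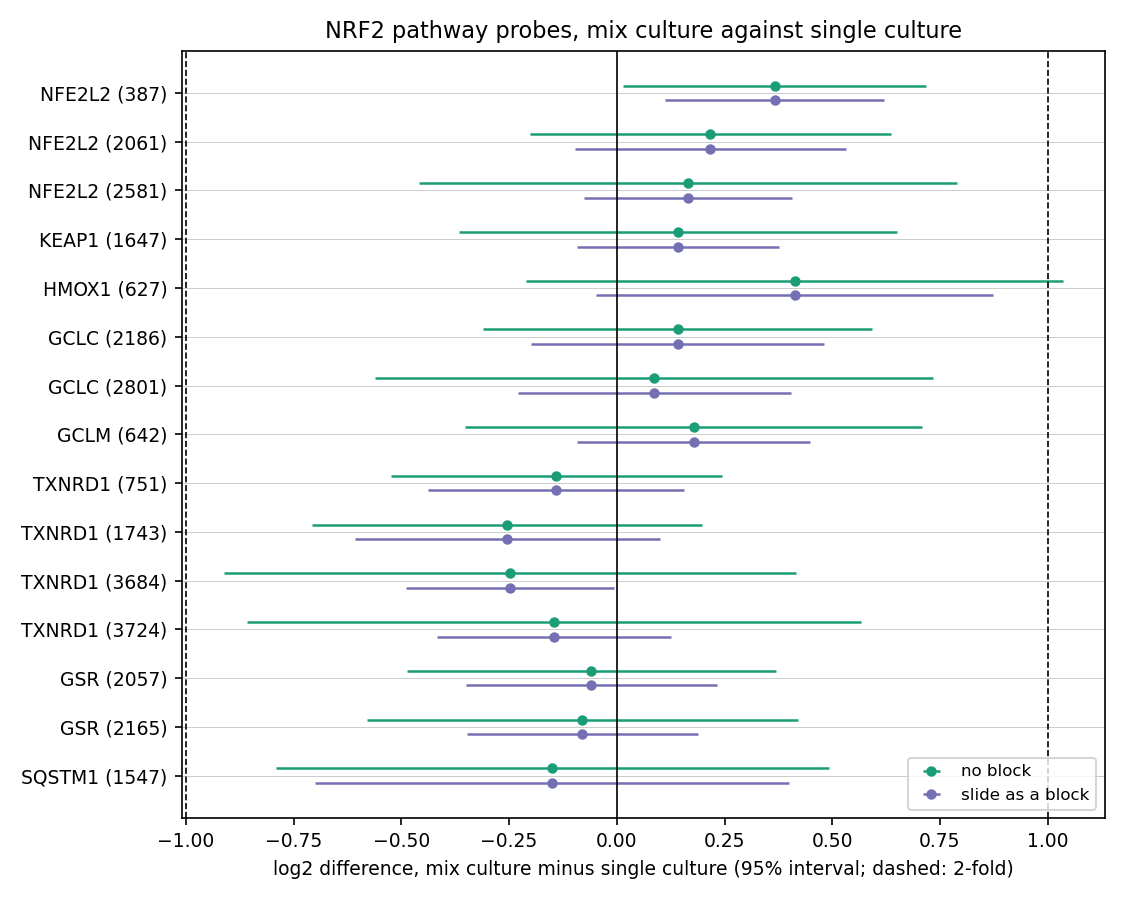
Log2 difference between mix and single culture (x axis) for each of the 15 NRF2 pathway probes (y axis, gene and first base of the probe), with 95% intervals without a block (green) and with slide as a block (purple); dashed lines mark 2-fold. Without a block only the HMOX1 interval, reaching 1.04, crosses a dashed line, and only that of NFE2L2 (387) stays clear of 0.

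Among the regulators, NFE2L2 itself gave the member probe with the smallest p. Its junction-spanning probe (387) read -1.30, -1.30 and -1.37 on the single culture arrays and -1.09, -0.96 and -0.82 on the mix culture arrays. Every mix culture array was above every single culture array, and it was the only one of the 15 probes whose groups did not overlap, while 16.5% of all probes tested did not overlap. The log2 difference was 0.37 (SE 0.15, n = 3 arrays a group), or 1.29-fold, with a limma adjusted p of 0.548 without a block and 0.0888 with slide as a block. With limma on the authors' value table in place of the scanner files the difference was 0.36. There the probe was called (limma adjusted p = 0.0300), the only 1 of the 15 member probes that was. Under that setting 4077 of all 26621 probes tested were called, a larger share than among the member probes.

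The other probes of NFE2L2 gave smaller differences with overlapping groups. Probe 2061 read 1.37, 1.25 and 1.34 in single culture and 1.28, 1.80 and 1.52 in mix culture, a log2 difference of 0.22 (limma adjusted p = 0.855). Mix culture 1 lay within the single culture range and the other 2 mix culture arrays above it. The brightest probe, 2581, read 2.46, 1.69 and 1.75 in single culture and 2.49, 1.99 and 1.93 in mix culture, a difference of 0.17 (limma adjusted p = 0.956). Here the 2 arrays of slide 1 stood above all others in both groups.

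KEAP1, the sensor that holds NRF2 in check, read 1.42, 1.78 and 1.90 in single culture and 1.51, 1.98 and 2.04 in mix culture. Within each slide the mix culture arrays were the higher ones, but slide 1 was low in both groups, so the groups overlapped. The log2 difference was 0.14 (SE 0.22; limma adjusted p = 0.951, and 0.401 with slide as a block).

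SQSTM1 was the member on which the slides disagreed most. It read 1.73, 1.29 and 1.24 in single culture and 0.77, 1.32 and 1.72 in mix culture. Mix culture 1 was the lowest of the 6 arrays, and mix culture 3 was nearly level with the highest, single culture 1. On slide 1 the log2 difference was -0.95 and on slide 2 it was 0.25, which averaged to -0.15 over all arrays (limma adjusted p = 0.962). The difference between the slides had an unadjusted p of 0.0031 in limma, the only member probe under 0.05, where 9.14% of all probes were, and it was not called after adjustment (adjusted p = 0.304). Slide 1 holds 1 array of each group, so its value rests on a single pair.

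**Figure D2:**
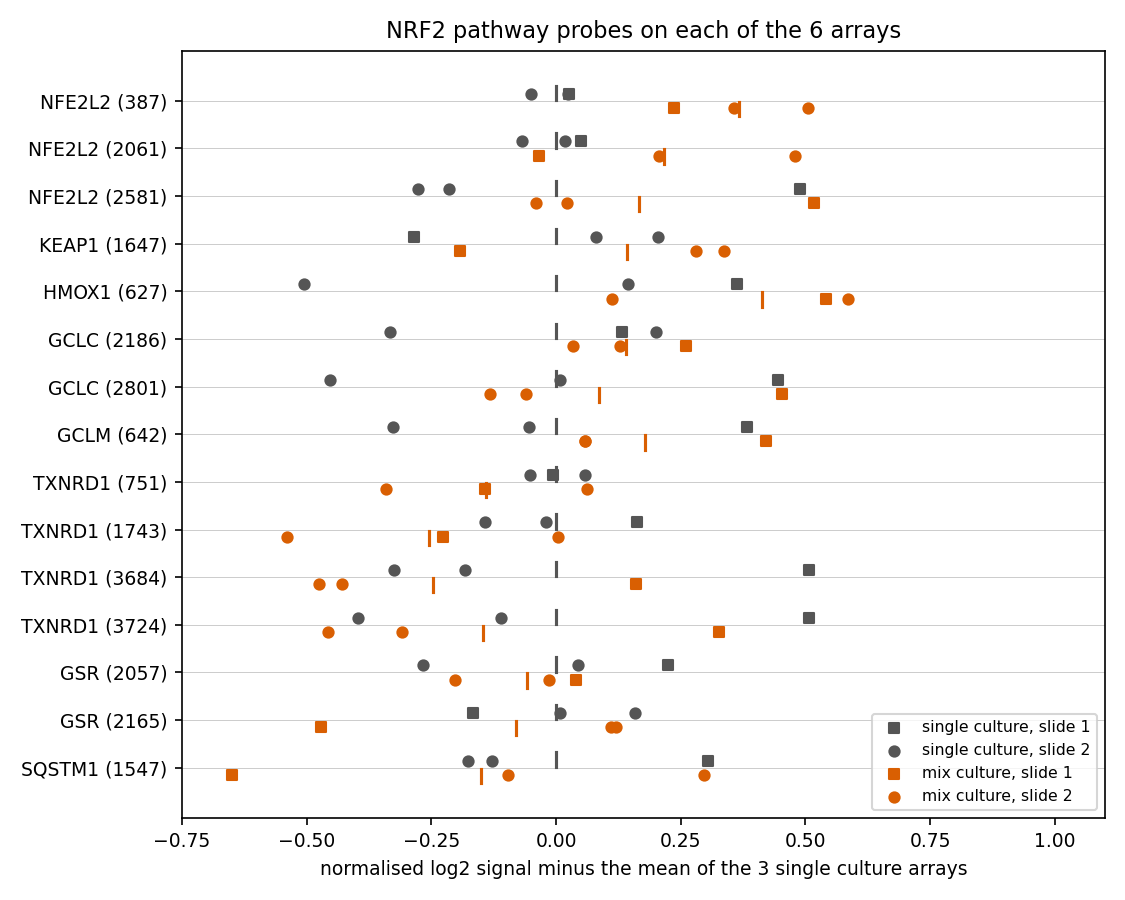
Normalised log2 signal of each NRF2 pathway probe on each array, as the distance from that probe's mean over the 3 single culture arrays (x axis), for single culture (grey) and mix culture (orange) on slide 1 (squares) and slide 2 (circles); ticks are group means. Only for NFE2L2 (387) do all mix culture arrays lie above all single culture arrays, and for SQSTM1 the slide 1 pair runs opposite to the slide 2 means.

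HMOX1 encodes haem oxygenase 1, which breaks haem down to biliverdin, iron and carbon monoxide and is among the most inducible NRF2 targets. With the 75th percentile scaling it gave the largest difference of the members, which was not called. It read -3.29, -4.16 and -3.50 in single culture and -3.11, -3.54 and -3.06 in mix culture. Single culture 2 was the lowest array, and single culture 1 and 3 both lay above mix culture 2, so the groups overlapped. The log2 difference was 0.41 (SE 0.26), or 1.33-fold, with a limma adjusted p of 0.786, and of 0.233 with slide as a block. It was 0.18 on slide 1 and 0.53 on slide 2. Of all probes tested, 14.2% had a larger absolute difference. The probe signal was dim, at 9.36 to 27.0 intensity units, though it passed the background limit on all 6 arrays. With normexp, whose offset of 50 exceeds this signal on every array, the log2 difference was 0.07, smaller than that of TXNRD1 (-0.19), GCLC (0.18) or NFE2L2 (0.16) under the same setting.

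The glutathione genes stayed close to level. GCLC and GCLM encode the catalytic and modifier subunits of glutamate-cysteine ligase, the rate-limiting enzyme of glutathione synthesis. GCLM read 0.26, -0.45 and -0.18 in single culture and 0.30, -0.07 and -0.07 in mix culture, a log2 difference of 0.18 (SE 0.23; limma adjusted p = 0.938). The brighter GCLC probe (2186) read 1.40, 0.93 and 1.46 in single culture and 1.52, 1.30 and 1.39 in mix culture, a difference of 0.14 (limma adjusted p = 0.944). The dimmer one (2801) differed by 0.09, and single culture 2 was the lowest array for both. All 3 probes of the subunits were on the positive side, with intervals that included 0.

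GSR, glutathione reductase, returns oxidised glutathione to its reduced form with NADPH. Its brighter probe (2165) read -0.42, -0.24 and -0.09 in single culture and -0.72, -0.14 and -0.13 in mix culture. Mix culture 1 was the lowest array, and the other 2 lay within the single culture range. The log2 difference was -0.08 (limma adjusted p = 0.976), and that of the junction-spanning probe (2057) was -0.06.

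TXNRD1, the cytosolic thioredoxin reductase, keeps thioredoxin reduced. All 4 of its probes were lower in mix culture, by 0.14 to 0.25 on the log2 scale, and none was called. The brightest (3684) read 4.70, 3.86 and 4.01 in single culture and 4.35, 3.71 and 3.76 in mix culture, a log2 difference of -0.25 (SE 0.28; limma adjusted p = 0.923). Within each slide its mix culture arrays were the lower ones, and with slide as a block its unadjusted p was 0.0455 and its adjusted p 0.184 in limma. The junction-spanning probe (1743) differed by -0.25, the probe at 751 by -0.14 and that at 3724 by -0.15. These are not independent measurements: all read the same RNA, and probes 3684 and 3724 share 20 bases.

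The members did not move as one. NFE2L2, KEAP1, HMOX1, GCLC and GCLM had positive differences by their brightest probes, and TXNRD1, GSR and SQSTM1 negative ones. Within each slide, 5 of the 15 probes had all mix culture arrays on the same side of the single culture arrays, 4 higher and 1 lower, where 40.6% of all probes did. The 4 were NFE2L2 (387), NFE2L2 (2581), KEAP1 and GCLM, and the lower one was TXNRD1 (3684). For 4 probes the sign differed between slides. On slide 2 the signed difference was larger than on slide 1 for 14 of the 15 probes, and this was so for 52.3% of all probes tested.

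**Figure D3:**
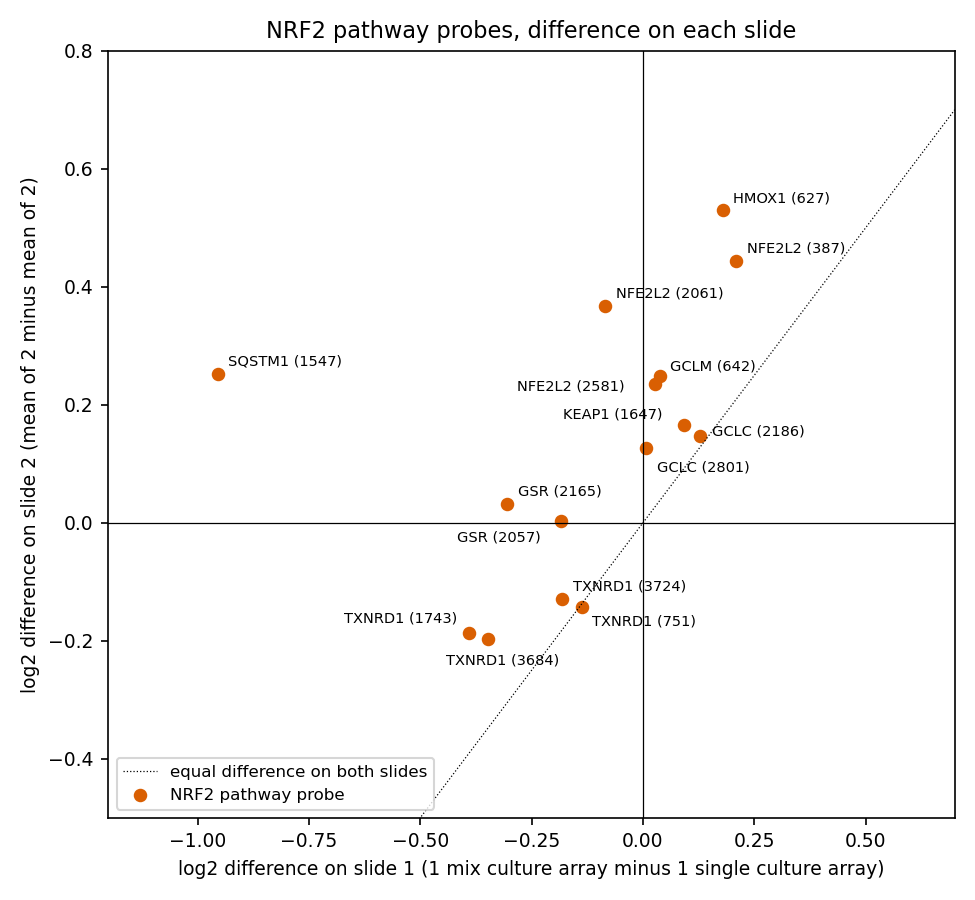
Log2 difference between mix and single culture on slide 1 (x axis, 1 array against 1) and on slide 2 (y axis, mean of 2 against mean of 2) for each NRF2 pathway probe; the dotted line marks equal differences. SQSTM1, at -0.95 and 0.25, lies farthest from the line, the 4 TXNRD1 probes are negative on both slides, and 14 of 15 probes lie above the line.

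More of these probes differed between slides than between cultures. With culture in the model, 7 of the 15 probes were called between slides, 5 lower and 2 higher on slide 2, where 47.2% of all probes were called. The 5 lower ones were NFE2L2 (2581), GCLC (2801), GCLM and TXNRD1 (3684 and 3724), with log2 slide differences of -0.63, -0.61, -0.47, -0.69 and -0.74. KEAP1 (0.46) and GSR (2165; 0.42) were higher on slide 2. The probes share a feature that the rule did not use: all 5 lower ones had a GC content of 35%, the lowest of the members, whose range was 35% to 55%. Of the 6 member probes with 35% GC or less, 6 were lower on slide 2, where 83.9% of all such probes were. Of the other 9, 3 were lower, where 46.9% of all probes above 35% GC were. Over all probes tested the median slide difference was -0.39 at 35% GC or less and 0.04 above it. The part of base composition in the slide difference was not tested.

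Genes that work beside the members were taken from 10 lists of 127 genes, of which 107 had a probe by name and 98 were tested by their brightest probe. Without a block 0 of 98 were called in limma, where 0.973% of the 9143 symbols tested were, and the methods' test also called 0; 11 had an unadjusted p under 0.05, and the smallest limma adjusted p was 0.189. With slide as a block 9 were called (9.18%), 4 higher and 5 lower, where 7.57% of all symbols were. ABCC2, among the 4 higher, passed the background filter only through mix culture, and its call rests on single culture signals below background. The median log2 difference over the 98 was -0.07, with 37 higher and 61 lower, and over all symbols it was -0.05. The calls named in the following paragraphs are those with slide as a block. Apart from GLRX and PSAT1, the called genes that are named were picked for not overlapping on either slide. That their groups did not overlap is therefore no further support, and 16.5% of all probes tested did not overlap.

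None of the 11 tested NRF2 regulators, among them the repressor BACH1, the MAF partners MAFF and MAFK and the ligase subunits CUL3 and RBX1, was called, and their differences ran from -0.34 to 0.12. Of 18 glutathione genes tested, 3 were called. SLC7A11, the cystine importer that supplies cysteine for glutathione and a known target of both NRF2 and ATF4, was lower. It read -2.28, -1.83 and -2.15 in single culture and -3.11, -2.96 and -2.64 in mix culture. The groups did not overlap, and the log2 difference of -0.82 (limma adjusted p = 0.0112 with slide as a block, 0.189 without) was almost equal on the slides, at -0.83 and -0.81.

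GSTA3, a glutathione S-transferase, was higher. It read -0.03, -2.34 and -1.95 in single culture and 0.69, 0.66 and 0.55 in mix culture. The mix culture arrays were nearly level, while single culture 1 stood far above the other single culture arrays. The log2 difference was 2.07 (limma adjusted p = 0.0145 with slide as a block, 0.248 without), 0.72 on slide 1 and 2.75 on slide 2, and a second probe gave 2.22. GSTA3 belongs to a family of close relatives whose messages can cross-hybridise. GLRX (0.62; limma adjusted p = 0.0331 with slide as a block), a glutaredoxin, was also higher. It falls outside the rule for named genes and was named after its values were seen.

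In the thioredoxin and peroxiredoxin list 1 of 10 genes tested was called. TXNRD3, a thioredoxin reductase related to TXNRD1, read 2.40, 2.37 and 2.31 in single culture and 1.56, 1.90 and 1.80 in mix culture. The groups did not overlap, and the log2 difference was -0.61 (limma adjusted p = 0.0213 with slide as a block, 0.224 without). A second, dimmer TXNRD3 probe gave -0.55, with groups that overlapped. No gene was called among 7 of NADPH supply, 8 of haem and iron, 6 superoxide and peroxide enzymes, 3 NADPH oxidases, and 12 autophagy receptors and ATG8 family genes.

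Of 17 detoxification and export genes tested, 2 were called, both higher, though the call of ABCC2 rests on single culture signals below background. ALDH1A1, an aldehyde dehydrogenase that makes retinoic acid, read 1.91, 1.73 and 1.41 in single culture and 2.57, 2.25 and 2.19 in mix culture. The groups did not overlap, and the log2 difference of 0.66 was 0.66 on slide 1 and 0.65 on slide 2 (limma adjusted p = 0.0167 with slide as a block, 0.323 without). ABCC2, which exports glutathione conjugates, was well above background on all 3 mix culture arrays and on 0 of the 3 single culture arrays. With single culture set at the background limit, it was at least 1.75-fold higher in mix culture on average, a bound without an interval. The probe passed the filter only through mix culture. Its limma adjusted p (0.0392 with slide as a block, 0.195 without) rests on single culture signals below background and does not test the bound. The measured log2 difference, with single culture below background, was 0.26 on slide 1 and 3.19 on slide 2, and the difference between the slides was called (limma adjusted p = 0.0416). With normexp, whose offset of 50 exceeds the signal of this probe on every array, the difference of ABCC2 over all arrays was 0.15. The bound sets the mean of the mix culture arrays against the mean, over the single culture arrays, of the lowest signal well above background on each, or of the probe's own signal where higher. A second ABCC2 probe was well above background on 0 of the 6 arrays and was not tested.

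The ATF4 stress response list, whose genes answer amino acid shortage and endoplasmic reticulum stress, had the lowest median, -0.52 over 6 genes tested. That median was -1.04 on slide 1, which holds 1 array of each group, and -0.39 on slide 2. Of the 6 genes 3 were called, all lower, where 7.57% of all symbols were called. ATF4 itself differed by -0.31 and DDIT3 by 0.32, and neither was called (limma adjusted p = 0.139 and 0.116 with slide as a block). Both were named after their values were seen. TRIB3, a pseudokinase induced by ATF4, read -0.30, 0.40 and 0.08 in single culture and -1.49, -0.52 and -0.51 in mix culture, a log2 difference of -0.90 (limma adjusted p = 0.00812 with slide as a block, 0.455 without). DDIT4, an inhibitor of mTORC1 signalling, read 5.06, 4.06 and 3.84 in single culture and 3.58, 3.58 and 3.16 in mix culture, a difference of -0.88 (0.0407 and 0.502). For both genes every mix culture array was below every single culture array. The difference was larger on slide 1, a single pair, than on slide 2: -1.18 and -0.76 for TRIB3, -1.48 and -0.58 for DDIT4. On slide 2 alone TRIB3 was called and DDIT4 was not (limma adjusted p = 0.0383 and 0.142). PSAT1 (-0.73; limma adjusted p = 0.0330 with slide as a block), an enzyme of serine synthesis, was the other, named after its values were seen. SLC7A11 is not on this list.

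**Figure D4:**
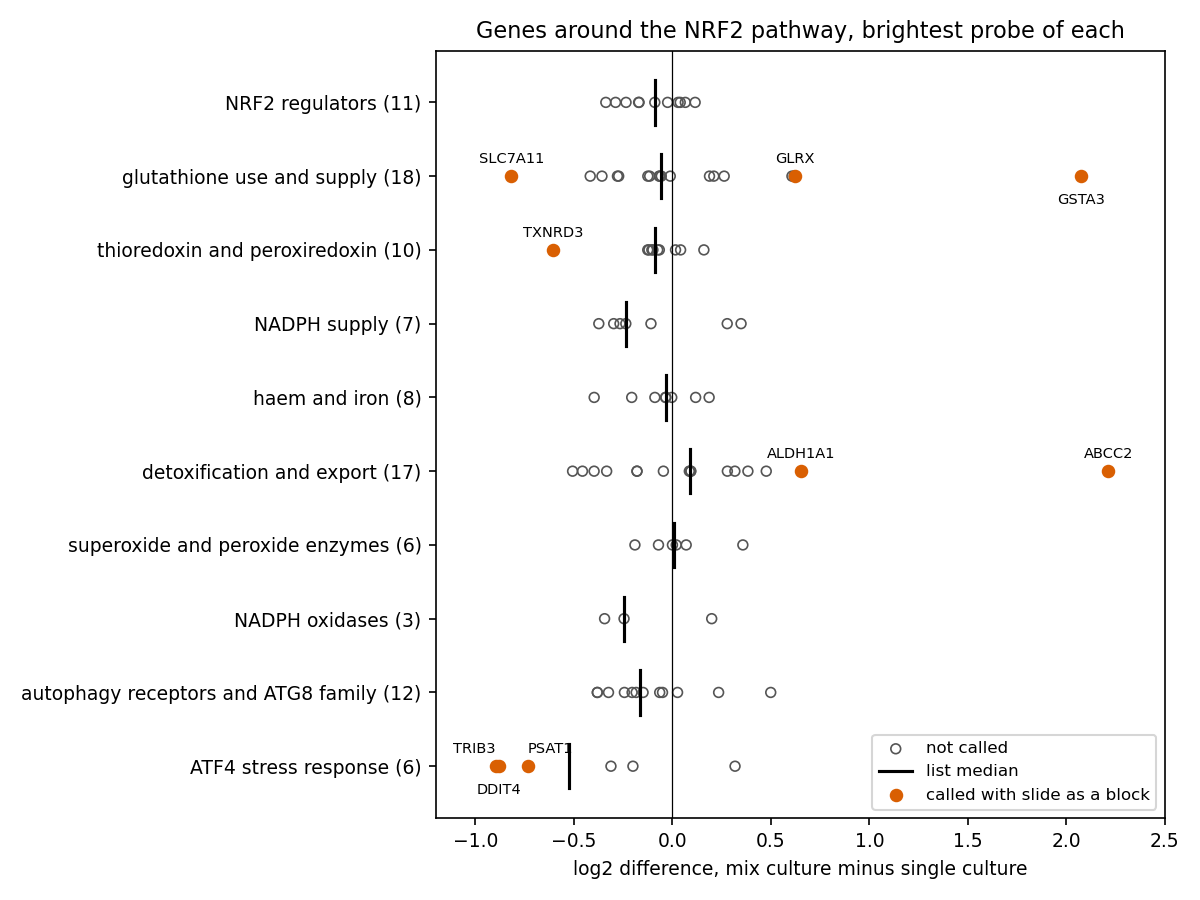
Log2 difference between mix and single culture (x axis) for the 98 genes of the 10 lists around the NRF2 pathway (y axis, number tested in brackets), 1 point a gene by its brightest probe; filled points were called with slide as a block and bars are list medians. The 9 called genes are labelled, and the ATF4 list has the lowest median at -0.52. The point for ABCC2 is its measured difference, 2.21, which rests on single culture signals below background. With single culture set at the background limit, ABCC2 was at least 1.75-fold higher.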

How the data were processed

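Per the file headers, Agilent Feature Extraction made the deposited scanner files, 1 per array, which hold linear, background-subtracted intensity for each spot of a single-colour (Cy3) canine array, with no scaling between arrays. A value table deposited by the authors holds log2 values of these arrays. Its steps are not given in the sources used here, and it served as an alternative. Slide 1 was scanned at 3 µm and slide 2 at 5 µm.

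Control and outlier spots (5 to 9 per array) were left out, spots of a probe were averaged as log2, and the 75th percentile of each array was subtracted. Testing a probe required at least 1 group in which all 3 arrays were well above background. Groups, taken from the sample titles, entered a two-sided limma fit with no block (limma 3.58.1, R 4.3.3). P-values were adjusted over 26621 probes by Benjamini-Hochberg, and an adjusted p under 0.05 was a call. The fit was tested on simulated data with independent noise and no slide effect, which does not cover the slide differences seen here. A gene was counted by its brightest tested probe. Gene names are those of the array files, and 20035 of 43603 probes had one found in a RefSeq table of UU_Cfam_GSD_1.0, used for names only.

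The members and lists were chosen with earlier results of these data known. Named genes were all members, every list gene called without a block, and in each list up to 2 with the largest change among those called with slide as a block and not overlapping on either slide, plus HRAS and CTNNB1. Marker lists covered epithelium, fibroblasts, leukocytes and endothelium. Alternatives were other scaling (median, quantile), normexp with an offset of 50, other filters, blocks, slide 2 alone, the authors' table, the methods' test and leaving out each array.

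Arrays with the same number in both groups shared their deviations from the group means (r = 0.801, 0.530 and 0.572 for numbers 1, 2 and 3 over 26621 probes). On slide 2, arrays with different numbers correlated as well (0.632 and 0.610), so these values do not show that the numbers pair the samples. The main fit was unpaired, and replicate number was a block only in an alternative.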

Additional observations from a re-analysis of the deposited data

How the results depend on the processing

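Counted by the brightest probe of each gene, 0 NRF2 pathway genes were called in all alternatives run, including each array left out. Counted by probe, NFE2L2 (387) was called from the authors' table (limma adjusted p = 0.0300). With the replicate block, the adjusted p of NFE2L2 (387) was 0.143 and no member was called; that block gave 1399 called probes and 8 list genes, against 235 and 0. Called probes were 132 with normexp, 143 with all 6 arrays above background, 1917 with slide as a block, 983 on slide 2 alone, 4077 from the authors' table, 8 with the methods' test, and 92 to 247 with 1 array left out. Called list genes were 9 with slide as a block, 4 on slide 2 alone, 20 from the authors' table and 0 to 2 with 1 array left out. The 2 were ABCC2 (2.77) and GSTA3 (2.78), without single culture 1. The value and call of ABCC2 again rest on single culture signals below background. ABCC2 was not called with the replicate block.

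On slide 2 alone GSR (0.032) and SQSTM1 (0.25) were reversed. With 1 array left out, 6 members changed sign, none called: NFE2L2 lay between -0.0096 and 0.41, KEAP1 between -0.00095 and 0.31, GCLC between -0.026 and 0.24, TXNRD1 between -0.45 and 0.0063, GSR between -0.18 and 0.12, and SQSTM1 between -0.37 and 0.10. HMOX1 (0.16 to 0.59) and GCLM (0.01 to 0.37) kept their sign. With probes that name GCLM only in their description included, an alternative chosen after seeing the data, the GCLM difference was 0.40 (limma adjusted p = 0.805). The cause of these shifts was not tested. With 3 arrays a group, their number limits the precision.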

Other observations

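3 probes named GCLM or SRXN1 in their description but not in their gene name, and so lay outside the rule. The SRXN1 probe, for sulfiredoxin, which repairs overoxidised peroxiredoxins, differed by 0.01 on the log2 scale (limma adjusted p = 0.993, 95% interval -0.38 to 0.41). The GCLM probes differed by 0.40 and 0.31 (limma adjusted p = 0.805 and 0.930). Their 95% intervals, -0.24 to 1.04 and -0.55 to 1.17, did not exclude a 2-fold rise. With slide as a block the intervals were 0.04 to 0.76 and 0.03 to 0.58, and the limma adjusted p was 0.160 and 0.159. Within each slide the mix culture arrays were the higher ones for both probes.

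CTNNB1, the β-catenin gene, differed by 0.26 by its brightest probe (limma adjusted p = 0.889). In the authors' value table, the columns of mix culture 2 and 3 each matched the scanner file of the other (r = 0.999 and 0.993 over 26621 probes, after removal of the slide mean) and not their own (0.457 and 0.459). The groups, and so every comparison without a replicate block, are the same either way.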
